A study of Bos taurus with 6 samples.

Results

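The miRNAs described here are miR-21, miR-146a, miR-146b and miR-155 of cattle, a group linked to the transcription factor NF-kB. Their rows were taken by name from the miRNA part of the deposited table (bta-miR-21-5p, bta-miR-21-3p, bta-miR-146a, bta-miR-146b and bta-miR-155), which gave 5 of the 765 miRNAs listed. The cells were primary myoblasts, the precursors of muscle fibers, from the longissimus dorsi muscle of fetal cattle. The RSV group (3 cultures) was kept for 4 days in differentiation medium with 20 μM resveratrol (RSV), a plant polyphenol that had been dissolved in DMSO, and the control group (3 cultures) was kept in the same medium with DMSO alone. The myoblasts were obtained by enzymatic digestion of muscle pieces and a short pre-plating step, so cells of other types could have been carried along. The paper's methods describe 3 independent experiments per group and do not say how many fetuses the cells came from.

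NF-kB is a family of transcription factors that is held in the cytoplasm until an inflammatory or stress signal frees it. It then switches on cytokine, chemokine and adhesion molecule genes together with miRNAs that feed back on the same pathway. miR-146a and miR-146b share their seed and repress TRAF6 and IRAK1. These are an adaptor and a kinase that carry the signal from Toll-like and interleukin-1 receptors to NF-kB. miR-155 is strongly induced in activated immune cells and represses SOCS1 and the phosphatase gene INPP5D. miR-21 is abundant in many cultured cells and represses PDCD4 and other growth inhibitors, and its hairpin gives the abundant guide strand miR-21-5p and the rare passenger strand miR-21-3p. RSV is known as a compound that dampens NF-kB. In the RefSeq annotation of ARS-UCD2.0, which is not the build the reads were mapped to, MIR21 is the gene between VMP1 and TUBD1, and MIR146A, MIR146B and MIR155 overlap no other annotated gene.

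Single cultures have no column in the deposited table, which lists 1 mean per group in normalized reads. Normalized reads are reads after scaling by a library's size factor, a measure of its depth. Because a group mean is built from 3 whole numbers of reads, each over a fixed size factor, single libraries could be read back for 583 of the 765 miRNAs (76.2%), all of them with means under 1000. Of the 5 members, miR-21-3p, miR-146a and miR-146b had a unique solution in all 6 libraries. The means of miR-21-5p and miR-155 were too large, so these members have the authors' group means without a replicate error or a test. They are not tied to replicate numbers and are called A, B and C by falling size factor. The size factors were 1.54, 1.29 and 0.935 for RSV, against 0.922, 0.823 and 0.729 for the control. The letters of miRNA and mRNA libraries were assigned separately and were not linked to each other.

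The muscle miRNAs miR-206 and miR-1 had authors' means of 127629 and 28912 normalized reads in RSV and 139464 and 30883 in the control. The log2 ratios of the means were −0.13 and −0.095, and those of miR-133a and miR-133b were 0.069 and 0.035, whereas miR-208b had a log2 fold change of −0.089 (limma voom, adjusted p = 0.803). miR-499 had 91.5, 162 and 89.8 normalized reads in RSV against 41.2, 44.9 and 52.1 in the control. Its log2 fold change was 1.27 (limma voom, adjusted p = 0.0251). Its call was lost without any 1 of the control libraries. The leukocyte miRNAs miR-142-3p, miR-142-5p, miR-150 and miR-223 were low. Their summed level (4 of 4 listed) was 3.86 to 174 normalized reads in the RSV libraries and 37.6 to 74.1 in the control libraries. The highest sum belonged to RSV library C, where miR-223 was nevertheless at 0, as in all RSV libraries, and miR-142-3p was at 0 in RSV library B. The red cell miRNA miR-451 was 463 normalized reads in RSV library B and 53.4 to 97.4 in the other 5 libraries. miR-486, which was listed with the red cell miRNAs, had authors' means of 558 in RSV and 572 in the control, a log2 ratio of −0.036. The cell type that gave the reads of miR-486 was not tested. Its reads in single libraries were not recovered.

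miR-21-5p was the most abundant of all 765 miRNAs. The authors' mean was 2395745 normalized reads in RSV and 2578774 in the control, which was 36.1% and 35.1% of the summed means of all miRNAs. The next miRNA, let-7i, had means of 675310 and 790579. On the scale of the authors' size factors the RSV mean of miR-21-5p was 0.929 of the control mean, a log2 ratio of −0.11. As a share of the summed means it was slightly higher in RSV, with a log2 ratio of 0.039. The summed means were 9.57% lower in RSV. The sign of the small difference in miR-21-5p therefore depended on the scaling, and it has no replicate error. Some rows in the sum repeat the same or nearly the same means under another name. For example, let-7b and miR-3596 both had 12896 in RSV, and miR-199a-3p and miR-3604 had 321333 and 321286. The shares are therefore of the summed rows and not of distinct reads.

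miR-155 held rank 66 of the 765 miRNAs, far below miR-21-5p and far above the other members. The authors' mean was 6697 normalized reads in RSV and 7089 in the control. The RSV mean was 0.945 of the control mean, a log2 ratio of −0.082. As a share of the summed means the log2 ratio was 0.063. Its neighbours in the order of levels, miR-450a and miR-493, had log2 ratios of −0.061 and 0.17. The leukocyte miRNAs given above differed between libraries, and whether miR-155 moved with them could not be examined without its reads in single libraries.

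miR-21-3p, the passenger strand of the same hairpin, fell under RSV. In the RSV libraries A, B and C it had 243, 207.9 and 268 normalized reads (375, 269 and 251 reads), and in the control libraries A, B and C it had 364, 447 and 392.4 (336, 368 and 286 reads). All 3 RSV libraries were below all 3 control libraries, as in the plot of recovered reads per library. The means were 239.8 ± 30.4 (SD, n = 3) in RSV and 401 ± 41.9 (SD, n = 3) in the control. The log2 fold change from limma voom, a linear model on log2 reads weighted by their precision, was −0.75 (standard error 0.13, adjusted p = 0.00935, Benjamini-Hochberg over the 209 miRNAs tested), which is a 1.68-fold lower level. The 95% interval was −1.03 to −0.46. In bulk RNA, a lower level per cell and fewer cells that make the miRNA cannot be told apart. The same test called 20 of the 209 miRNAs (9.57%), 11 higher and 9 lower in RSV, and 69 (33%) had no overlap between the groups. These counts were 1 higher and 4 lower without control library A, 3 and 4 without control library B, 1 and 3 without control library C, and 6 and 6 without RSV library A. By p-value miR-21-3p was at place 5 of the 209 and at place 4 of those lower in RSV. Without control library C the adjusted p of limma voom was 0.0565 at a log2 fold change of −0.76, and without RSV library C it was 0.00307 at −0.83.

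**Figure D1:**
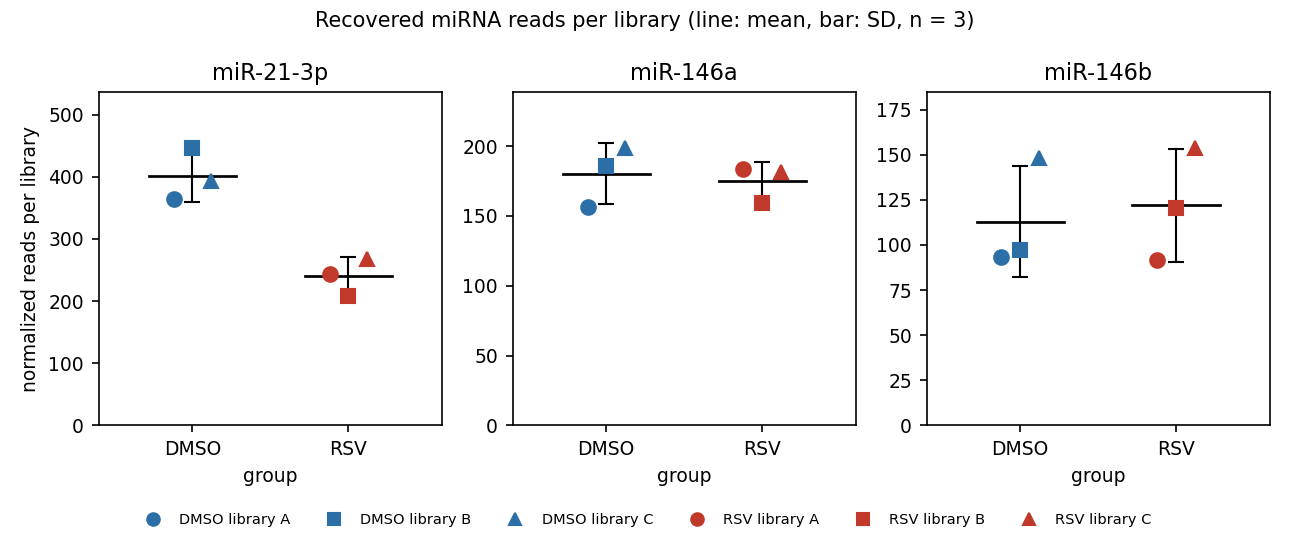
Recovered normalized reads of miR-21-3p, miR-146a and miR-146b (vertical axis, from 0) in each library of the control (DMSO, blue) and RSV (red) groups, with the group mean as a line and the SD as a bar (n = 3). The RSV libraries of miR-21-3p lie between 207.9 and 268, below the control libraries at 364 to 447, whereas the groups overlap for miR-146a and miR-146b.

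The strands of the miR-21 hairpin thus had different ratios of means. For every read of miR-21-3p there were 9989 reads of miR-21-5p in RSV and 6427 in the control by the authors' means. Scaling a whole group does not change this 1.55-fold difference, but the size factors of its libraries enter each mean. The difference was not tested, because no reads of miR-21-5p in single libraries were recovered. Among the 391 miRNAs whose mean reached 10 normalized reads, the median log2 ratio of the group means was 0.0049 and the middle of the distribution, between its quartiles, ran from −0.17 to 0.20. Only 7 of these miRNAs had a lower log2 ratio than miR-21-3p, whose ratio was −0.74. The log2 ratios of miR-21-5p, miR-155, miR-146a and miR-146b all lay between the quartiles. The plot of group means against the log2 ratio shows miR-21-3p apart from the other 4 members.

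**Figure D2:**
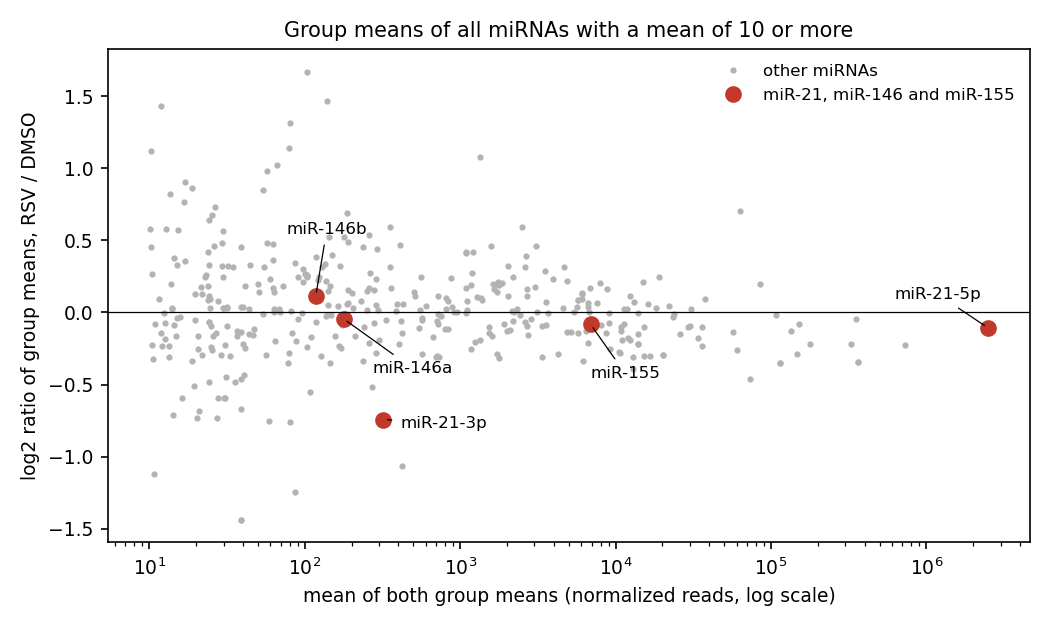
Log2 ratio of the authors' group means (RSV over DMSO, vertical axis) against the mean of both groups (normalized reads, log scale) for the 391 miRNAs with a mean of at least 10. The members are red, with miR-21-5p at the right edge, and only miR-21-3p lies far from the line at 0.

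miR-146a had 184, 159 and 182 normalized reads in RSV libraries A, B and C and 156, 186 and 198.9 in control libraries A, B and C, with at most 283 reads in a library. The RSV values lay inside the range of the control values. The means were 175 ± 13.6 (SD, n = 3) in RSV and 180.3 ± 21.9 (SD, n = 3) in the control. The log2 fold change was −0.038 with a standard error of 0.12 (limma voom, adjusted p = 0.881) and a 95% interval from −0.31 to 0.24. A change of the size of miR-21-3p lies outside this interval.

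miR-146b had 91.5, 121 and 154 normalized reads in RSV libraries A, B and C and 93.3, 97.2 and 148 in control libraries A, B and C, from 80 to 156 reads per library. It spread more within a group than miR-146a did, and in both groups library C, with the smallest size factor, was the highest. Library C was the highest in both groups for 20 of the 209 miRNAs tested (9.57%), with miR-146b among them. The means were 122 ± 31.3 (SD, n = 3) in RSV and 113 ± 30.6 (SD, n = 3) in the control, with a log2 fold change of 0.11 (standard error 0.22) and a 95% interval from −0.40 to 0.62. The adjusted p of limma voom was 0.803, and the groups overlapped. RSV library C also held the highest level of the leukocyte miRNAs, with 72.7 normalized reads of miR-150 against 3.24 and 1.55 in the other RSV libraries and 28.2, 25.5 and 41.2 in control libraries A, B and C. miR-150 had a log2 fold change of −2.41 (limma voom, adjusted p = 0.109), and without RSV library C it was −3.56 (adjusted p = 0.00119). The part of these cells in the level of miR-146b was not tested. Without RSV library C the log2 fold change of miR-146b was −0.053 (adjusted p = 0.867 from limma voom).

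Mature miRNAs are of nearly the same length, so normalized reads of different members were set side by side. Ligation and amplification can capture miRNAs unequally, which was not tested, so the order is one of reads. The order of the members was miR-21-5p, miR-155, miR-21-3p, miR-146a and miR-146b in both groups, at ranks 1, 66, 186, 215 and 240 of all miRNAs. Within a library miR-146a exceeded miR-146b in 6 of 6 libraries, by 1.181 to 2.01 times, and miR-21-3p exceeded miR-146a in 6 of 6, by 1.31 to 2.41 times. A two-sided exact sign-flip test over the 6 libraries gave p = 0.03125 for each pair, the lowest value possible with 6 libraries, and 0.03125 after Benjamini-Hochberg adjustment over 3 pairs. This test pooled the libraries of both groups and was added after seeing the data, for pairs ordered by the same reads. It shows only that the order of miR-21-3p, miR-146a and miR-146b, neighbours in level, was kept in all 6 libraries. Whether miR-21-5p, miR-155 and miR-21-3p kept their order in single libraries could not be tested.

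A ratio of reads within a library does not depend on the scaling. The ratio of miR-21-3p to miR-146a was 1.33, 1.31 and 1.48 in RSV libraries A, B and C and 2.33, 2.41 and 1.97 in control libraries A, B and C. The ranges did not overlap, and the ratio was 1.63-fold lower in RSV by the mean of logs (p = 0.10 by a two-sided exact permutation test, which cannot go lower with 3 against 3, and 0.30 when adjusted over 3 ratios). The ratio of miR-21-3p to miR-146b was 1.72 to 2.66 in RSV and 2.65 to 4.60 in the control, ranges that overlapped slightly (exact permutation test, p = 0.20, adjusted p = 0.30). The ratio of miR-146a to miR-146b was 2.01, 1.32 and 1.181 in RSV and 1.67, 1.91 and 1.34 in the control, with a log2 difference of −0.15 that was smaller than the spread within the groups (exact permutation test, p = 0.70, adjusted p = 0.70).

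**Figure D3:**
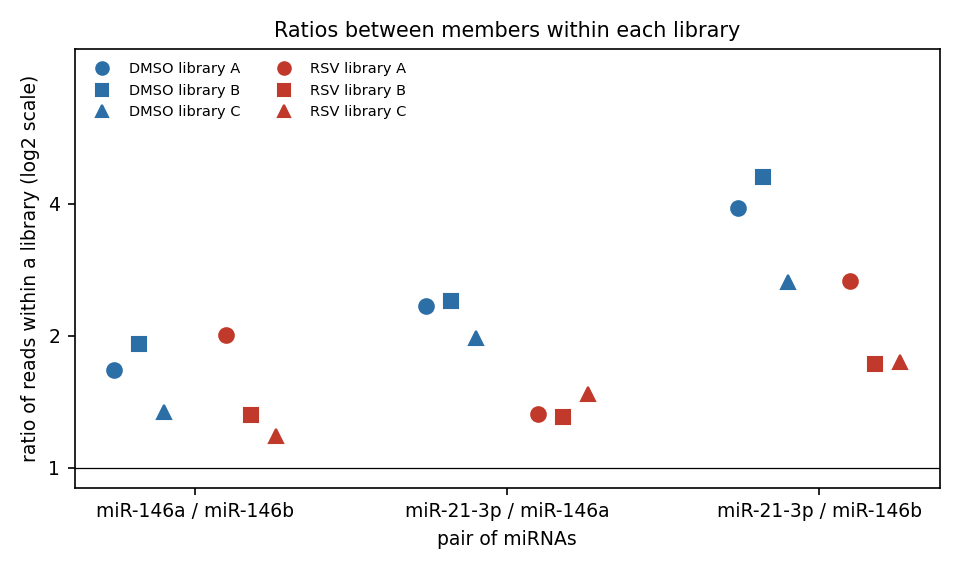
Ratio of reads of 2 members within each library (vertical axis, log2 scale) for 3 pairs, with control (DMSO) libraries in blue and RSV libraries in red. The miR-21-3p to miR-146a ratios of the control libraries (1.97 to 2.41) lie above those of the RSV libraries (1.31 to 1.48), and the miR-146a to miR-146b ratios overlap.

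The miRNAs whose log2 level followed a member most closely over the 6 libraries were named by Pearson correlation, as a description without a test. For miR-21-3p these were miR-502b (r = 0.963), miR-210 (r = 0.9495) and miR-2403 (r = 0.946). miR-210, known for its induction by low oxygen, had authors' means of 274 normalized reads in RSV and 572 in the control. Its log2 fold change was −1.08 (adjusted p = 0.00935 from limma voom). Those of miR-502b and miR-2403 were −0.77 and −0.57 (limma voom, adjusted p = 0.0181 and 0.0842). The correlations with miR-21-3p therefore take in the difference between the groups. For miR-146a the closest was miR-1306 (r = 0.848), followed by miR-99a-3p and miR-1185 (r = 0.824 and 0.770). For miR-146b these were miR-1296 (r = 0.851), the endothelial miRNA miR-126-3p (r = 0.842) and miR-2355-3p (r = 0.827). miR-126-3p had 172, 350.1 and 365 normalized reads in RSV libraries A, B and C and 234, 249 and 311 in control libraries A, B and C, and its part in the level of miR-146b was not tested. Between members the correlations were 0.383 for miR-21-3p with miR-146a, −0.117 for miR-21-3p with miR-146b and 0.377 for miR-146a with miR-146b. All these miRNAs share the libraries and their size factors.

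A list of other miRNAs linked to NF-kB held 18 rows of the table, of which 6 could be tested, the others being too low or without recovered reads. Of these 6, limma voom called 1 lower and 0 higher in RSV, beside 4.31% and 5.26% of all 209 miRNAs tested. The median log2 fold change of the 6 was 0.0101 and that of all tested miRNAs 0.0303. The miRNA called was miR-132, which is induced by inflammatory stimuli. It had 37.0, 51.0 and 43.8 normalized reads in RSV libraries A, B and C and 80.3, 71.6 and 70.0 in the control libraries, without overlap, and fell by 0.77 on the log2 scale with a standard error of 0.16 (limma voom, adjusted p = 0.0206). This call was lost in 4 of the 6 fits that left out a library, namely those without RSV library A or without control library A, B or C, with adjusted p-values up to 0.104. miR-9-3p, miR-147, miR-15a, miR-126-3p and miR-17-3p had log2 fold changes between −0.078 and 0.21, each with an adjusted p of at least 0.385. By the ratio of the authors' means, 9 of the 18 were higher and 8 lower in RSV. This split leaves out miR-223, which was also lower but has no ratio because its RSV mean was 0. Among the 18, miR-9-5p, a regulator of NFKB1, was 1109 and 1097, and miR-125b and miR-181b had log2 ratios of −0.10 and −0.094. Those of miR-10a, miR-16a and miR-16b were 0.031, −0.0019 and 0.013, and that of miR-31 was −0.29. miR-187 and miR-126-5p had means of 2.08 and 9.33 in RSV and 0.457 and 9.79 in the control. The strands of miR-199a, known to repress the kinase IKBKB, had log2 ratios of −0.34 for miR-199a-3p and −0.29 for miR-199a-5p, and miR-223 was listed at 0 in RSV and at 4.78 in the control.

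**Figure D4:**
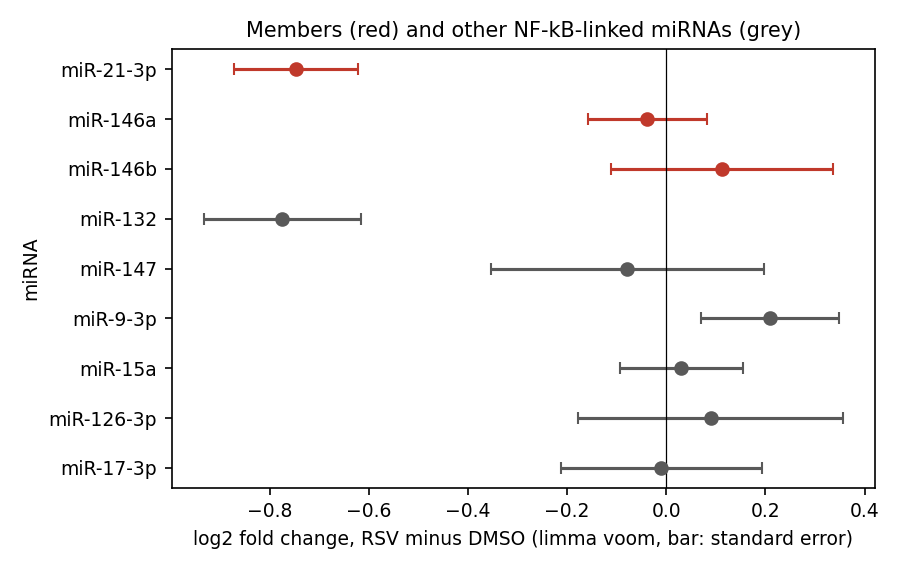
Log2 fold change (RSV minus DMSO, horizontal axis, with the standard error from limma voom) of the 3 members with recovered reads (red) and of the 6 other NF-kB-linked miRNAs that could be tested (grey). miR-21-3p at −0.75 and miR-132 at −0.77 stand away from 0.

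The mRNA of the same cultures was searched for genes of the NF-kB pathway, for genes NF-kB induces and for known targets of the members. The identifiers were paired with symbols only through the study's sheet of its own called mRNAs, which was held in part, so 18 of the 69 listed genes (26.1%) could be examined. That all 18 were called here, 11 higher and 7 lower, follows from this choice, and nothing is read from the count. The largest adjusted p of the 18 was 0.0226 (limma voom). The background was 34% of 14725 mRNAs called by limma voom (16.8% higher and 17.2% lower), and 53.4% were without overlap between the groups. No listed target of miR-146 (TRAF6, IRAK1, IRAK2 and NUMB) had a symbol.

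Of the 20 listed genes that NF-kB induces, 7 could be named, all of them called by the study, and 5 of these were higher and 2 lower in RSV. ICAM1, the adhesion molecule for leukocyte integrins, had 1304, 1168 and 1529 normalized reads in RSV libraries A, B and C against 207.5, 231 and 234 in the control libraries, a log2 fold change of 2.56. The neutrophil chemokine CXCL2 had 301, 252 and 345 against 45.7, 32.3 and 37.2, a log2 fold change of 2.94. CXCL3, CXCL5 and CSF1, the macrophage growth factor, were also higher, with log2 fold changes of 2.75, 1.10 and 1.02. The monocyte chemokine CCL2 moved the other way, with 114, 126.4 and 18.0 normalized reads in RSV against 271, 231 and 296 in the control. Its log2 fold change was −2.02 with a standard error of 0.53, and the value of 18.0 came from RSV library C. Without that library the log2 fold change of CCL2 was −1.13 (limma voom, adjusted p = 3.48e-06). The call for CCL2 was lost without any 1 of the control libraries, that for VCAM1 without control library A or C, and that for TPM1 without control library A. The adhesion molecule VCAM1 was lower as well, with 26.7, 40.6 and 17.1 against 83.0, 55.2 and 73.3.

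Among the listed pathway genes, the receptor TLR2 had 212, 223.3 and 279.9 normalized reads in RSV and 69.5, 54.2 and 83.5 in the control. Its log2 fold change was 1.80, and the adaptor TRAF3 had one of 0.45. The kinase IKBKE was lower, with 235, 198 and 139 against 297, 338 and 396, a log2 fold change of −0.86. TRAF5 had a log2 fold change of −0.75. TNFAIP8, which was placed on this list and not with the induced genes, had one of −0.73.

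The named targets of the members did not share a direction. For miR-21, PDCD4, the translation inhibitor, had 862, 907 and 978 normalized reads in RSV against 691, 643 and 652 in the control, a log2 fold change of 0.47, and BTG2, an antiproliferative gene, had one of 1.05. TGFBR2, a TGF-beta receptor, had 1897, 1951 and 1520 against 2735, 2813 and 2654, a log2 fold change of −0.62, and TPM1, a tropomyosin, had one of −0.38. For miR-155, INPP5D had 29.4, 39.7 and 39.8 normalized reads in RSV against 2.08, 5.21 and 3.38 in the control, a log2 fold change of 3.23. TP53INP1 had a log2 fold change of 1.15, and IKBKE, which is also on the pathway list, was lower as given above. BTG2 and TP53INP1 are known p53 targets as well. In 16 of the 18 genes, all but CXCL5 and CSF1, the RSV library farthest from the control was library C. The same held for 60% of the 14725 mRNAs tested and 69.5% of the 5004 called.

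**Figure D5:**
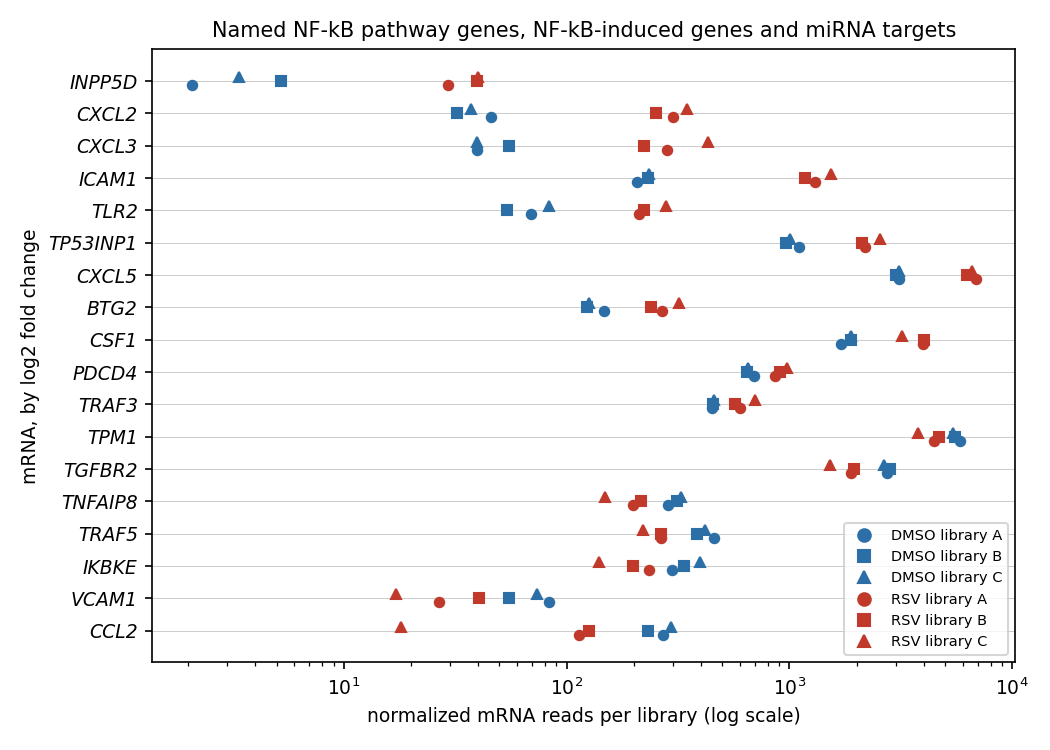
Normalized reads per library (horizontal axis, log scale) of the 18 named mRNAs, ordered by log2 fold change, in control (DMSO, blue) and RSV (red) libraries, with a marker shape for each library. The genes were named through the study's list of called mRNAs, so the groups are apart by choice, and RSV library C (triangle) stands lowest for CCL2 at 18.0.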

How the data were processed

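The authors mapped the miRNA reads to bosTau8 with Bowtie (version 0.12.9) and named them by miRBase. The aligner of the mRNA reads is not given in the sources used here. The deposited values are group means of read counts divided by size factors. The log2 fold changes, P-values and adjusted P-values of the authors' own comparison were not used.

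Size factors were fitted to means of features with few reads, and all whole reads that gave a mean within its printed digits were searched (miRNA means under 1000). Reads were kept where the solution was unique. In the mRNA part most decimal points were lost, and 1 to 4 digits before the point were tried, which gave unique reads for 20157 of 20459 mRNAs with reads. Groups were compared on the recovered reads by limma voom in R 4.3.3 (limma 3.58.1), with library sizes set by the size factors, a minimum mean of 10 normalized reads and Benjamini-Hochberg adjustment over all features tested. The 209 miRNAs tested had means up to 423, so the adjustment does not cover the abundant ones. Recovered reads summed to between 13419 and 28392 per miRNA library without the abundant miRNAs, and to between 11018557 and 13183867 per mRNA library. The read search and the exact tests ran in Python 3.11.15 with numba 0.67.0, numpy 2.4.6, pandas 2.3.3 and scipy 1.17.1.

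The members and lists were chosen with earlier results of these data known. Named were the members, their neighbours in level and in pattern, and the listed miRNAs and mRNAs. The level tests between members and 2 of the 3 ratios were added after seeing the data. The recovery of reads and the limma voom fit were tested on simulated data. Nothing says that cultures of a group came from separate animals, so p-values measure the spread between these cultures.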

Additional observations from a re-analysis of the deposited data

How the results depend on the processing

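Scaling as a share of the summed means of all miRNAs, an alternative chosen after seeing the data, moved every log2 ratio. The summed means differed between the groups, and some of their rows repeat the same reads under another name. The log2 ratios of miR-21-5p and miR-155 became 0.039 and 0.063, from −0.11 and −0.082. That of miR-146a became 0.10, from −0.044, and that of miR-146b 0.26, from 0.11. The log2 ratio of miR-21-3p became −0.60, from −0.74. These shares of group means have no test. The other settings (limma on log2 values, another minimum, scaling or weighting) left miR-21-3p between −0.78 and −0.73 with adjusted p from limma of 5.53e-05 to 0.0151, and miR-146a and miR-146b not called. With no minimum beyond 1 read, 14 miRNAs were called lower in RSV and 2 of the NF-kB-linked list, and scaling by total reads turned miR-15a to −0.0031. Leaving out single libraries, the log2 fold change was −0.83 to −0.64 for miR-21-3p (adjusted p of limma voom 0.00307 to 0.0565, above the threshold without control library C), −0.14 to 0.034 for miR-146a and −0.053 to 0.31 for miR-146b. The miR-146a to miR-146b difference was −0.38 to 0.0017 on the log2 scale. The counts were 1 to 12 miRNAs higher and 3 to 10 lower in RSV, with 1 higher without control library A or C and 3 lower without control library C. They were 0 to 0 and 0 to 1 of the NF-kB-linked list, and 11 to 11 named mRNAs higher and 4 to 7 lower, with CCL2, VCAM1 and TPM1 the genes that lost their call. The ranges without 1 library were −0.094 to 0.45 for miR-126-3p, −0.31 to 0.26 for miR-147, −0.088 to 0.10 for miR-15a, −0.22 to 0.13 for miR-17-3p, −0.18 to 0.013 for miR-208b and 0.020 to 1.49 for miR-451, none of them called. miR-499 ran from 0.98 to 1.42 (adjusted p of limma voom up to 0.148, lost without any 1 control library). miR-150 ran from −3.56 to −1.82 and was called without RSV library C and, at −2.33 (adjusted p = 0.0285), with no minimum beyond 1 read. The cause of these changes was not tested. No paired analysis was possible because the recovered libraries carry no replicate number. miR-21-5p and miR-155 have no replicate check, and 3 libraries per group cannot give a permutation p under 0.10.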
